A study of Homo sapiens with 6 samples.

Results

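The 9 genes described here encode fibroblast growth factors (FGF1, FGF2, FGF5 and FGF18) and their receptors (FGFR1, FGFR2, FGFR3, FGFR4 and FGFRL1), followed in Daoy cells during endoplasmic reticulum (ER) stress. They were taken as listed, with every probe set that the platform annotation maps to one of these symbols alone, which gave 40 of the 54675 probe sets on the array and 9 of the 19775 genes that have a probe set of their own. Daoy is a human cell line established from a medulloblastoma, a tumor of the cerebellum. Cells were exposed to 1 µM thapsigargin (Tg), an inhibitor of the ER calcium pump that depletes ER calcium and activates the unfolded protein response (UPR), for 3 h or for 8 h, and untreated cells of the same line served as the control. Total RNA of each group was hybridized to 2 arrays, numbered replicate 1 and replicate 2, so the series holds 6 arrays in all. Medium, serum and line were shared by the 3 groups, and the length of culture of the untreated cells is not given in the sources used here. The study's methods describe 2 independent experiments, the labels number the arrays of each group 1 and 2 without tying a number to an experiment, and separate cultures are not described further. The p-values below measure only the spread among these arrays, with that of other probe sets taken into the estimate.

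FGFs are secreted proteins that bind receptor tyrosine kinases together with heparan sulfate on the cell surface. The occupied receptor phosphorylates the docking protein FRS2, which recruits GRB2 and SOS and thereby turns on RAS and the ERK kinases, and Sprouty proteins and dual-specificity phosphatases made in response limit the same signal. In tumors FGF2 acts on endothelial cells as a proangiogenic factor as well as on the tumor cells, and FGF1 and FGF2 lack a classical signal peptide, so they leave the cell without passing through the ER and Golgi. These statements are background and were not measured here.

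Values are MAS5 signals, a measure of brightness per probe set on a linear scale, and the levels of different probe sets cannot be set against each other. A probe set was tested if its signal reached 100 on at least 2 of the 6 arrays, which 27616 probe sets did, and was taken as near background if it stayed under 100 on all 6. Median signals per array lay between 69.7 and 103, and genes that belong to unrelated tissues, 15 of which had a probe set, had medians between 11.0 and 30.0. Their 95th percentiles ran from 40.5 to 139.1 per array, with a highest signal of 140.2, and AQP2 among them passed the filter. Signals around 100 therefore overlap those of these unrelated genes. Of 13 neural and fibroblast-like markers 10 were tested and ATOH1, MYCN and GFAP stayed under 100 on all arrays. Further, 0 of 7 immune genes passed the filter, and 4 of 8 endothelial genes did, with CDH5, VWF, CLDN5 and ESAM failing it. The 4 that passed were TIE1 (448 to 655 over the 6 arrays), TEK (94.6 to 359), KDR (62.8 to 224.5) and PECAM1 (71.8 to 135). With the replicate number as a block in the fit, 2 of the 10 tested neural and fibroblast-like markers were called at 8 h, where 4.76% of all genes tested were called higher and 3.79% lower, OLIG2 higher (398 and 481 at 8 h of Tg, 74.9 and 184.5 in untreated cells) and SOX2 lower (818 and 525 at 8 h, 1359 and 1562 in untreated cells), and their part in the results below was not tested. HSPA5, the ER chaperone BiP, read 73709 and 41567 at 3 h and 75398 and 44210 at 8 h of Tg, against 16615 and 18933 in untreated cells, and DDIT3, the stress transcription factor CHOP, read 20009 and 15123 at 8 h of Tg against 405 and 1654 in untreated cells. At 8 h HSPA5 had an adjusted p of 0.120 in limma, or 0.00156 with the replicate number as a block, and DDIT3 an adjusted p of 0.0211 in limma. The UPR gene DNAJB9 read 22367 and 16833 at 8 h against 1671 and 2096 in untreated cells (adjusted p = 0.00371 in limma). HERPUD1, also a UPR gene, read 35131 and 23998 against 1376 and 6623 (adjusted p = 0.0791 in limma, 0.00596 with the block).

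The promoters of FGF2, the one gene of the 9 with a call, and of HSPA5, an established UPR target, are shown first. DNA elements that UPR transcription factors bind have been described by consensus letters. Only exact matches to the letters given here were searched, so variants of an element were not counted. Both windows run from 250 bases before to 50 bases after the RefSeq start on GRCh38.p14, at chr4:122826581-122826880 on the plus strand for FGF2 and at chr9:125241294-125241593 on the minus strand for HSPA5. Capitals mark GC boxes (GGGCGG on either strand) in FGF2 and the ER stress element (CCAAT, then 9 bases of any kind, then CCACG) in HSPA5.
FGF2: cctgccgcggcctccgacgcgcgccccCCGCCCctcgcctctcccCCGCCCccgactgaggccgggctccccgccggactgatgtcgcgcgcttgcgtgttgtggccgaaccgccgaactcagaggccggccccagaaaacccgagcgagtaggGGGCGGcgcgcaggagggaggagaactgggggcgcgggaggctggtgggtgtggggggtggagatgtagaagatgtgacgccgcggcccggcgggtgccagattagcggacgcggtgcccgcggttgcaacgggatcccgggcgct
HSPA5: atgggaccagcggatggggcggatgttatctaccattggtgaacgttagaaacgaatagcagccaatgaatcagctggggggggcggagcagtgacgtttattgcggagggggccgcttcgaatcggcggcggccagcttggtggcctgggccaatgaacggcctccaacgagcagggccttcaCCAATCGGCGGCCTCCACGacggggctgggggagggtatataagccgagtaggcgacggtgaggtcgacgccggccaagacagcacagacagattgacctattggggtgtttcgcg
The FGF2 window held 3 GC boxes and was 74.7% G or C, and the HSPA5 window held 2, which are not in capitals, and was 61.3% G or C. The ER stress element was found in 0.0769% of 35116 promoter windows, the UPR element TGACGTGG in 0.729% and the ATF4 composite element TGATGNAAT in 0.991%, each searched on both strands. None of the 3 was found in the 17 windows of FGF1, FGF2, FGF5, FGF18, FGFR2, FGFR3, FGFR4 and FGFRL1, which says only that these letters are not in these windows. The GC box, a motif chosen after the FGF2 window had been read, was in 10 of the 17 windows and in 45.0% of all windows.

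Most of the 40 probe sets were dim. In all, 19 stayed under 100 on all 6 arrays, 8 reached 100 on 1 array, 13 were tested, and 9 reached 100 on every array. Those 9 belonged to FGF2, with both of its probe sets, FGFR1, with 5 of 7, FGFR2, with 1 of 11, and FGFRL1, with 1 of 2. By contrast, no probe set of FGF1, FGF5 or FGFR3 passed the filter, and FGF18 and FGFR4 each passed with 1. Taking the 95th percentile of the unrelated-tissue genes on each array as the limit in place of 100 left 18 probe sets near background, and a limit of 200 left 28. The 18 were not all among the 19. Both FGFR3 probe sets left the group, with 64.0 on Tg 8 h replicate 2 (limit 40.5) and 82.1 on Tg 3 h replicate 2 (limit 64.85). FGF5 210311_at joined it.

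**Figure D1:**
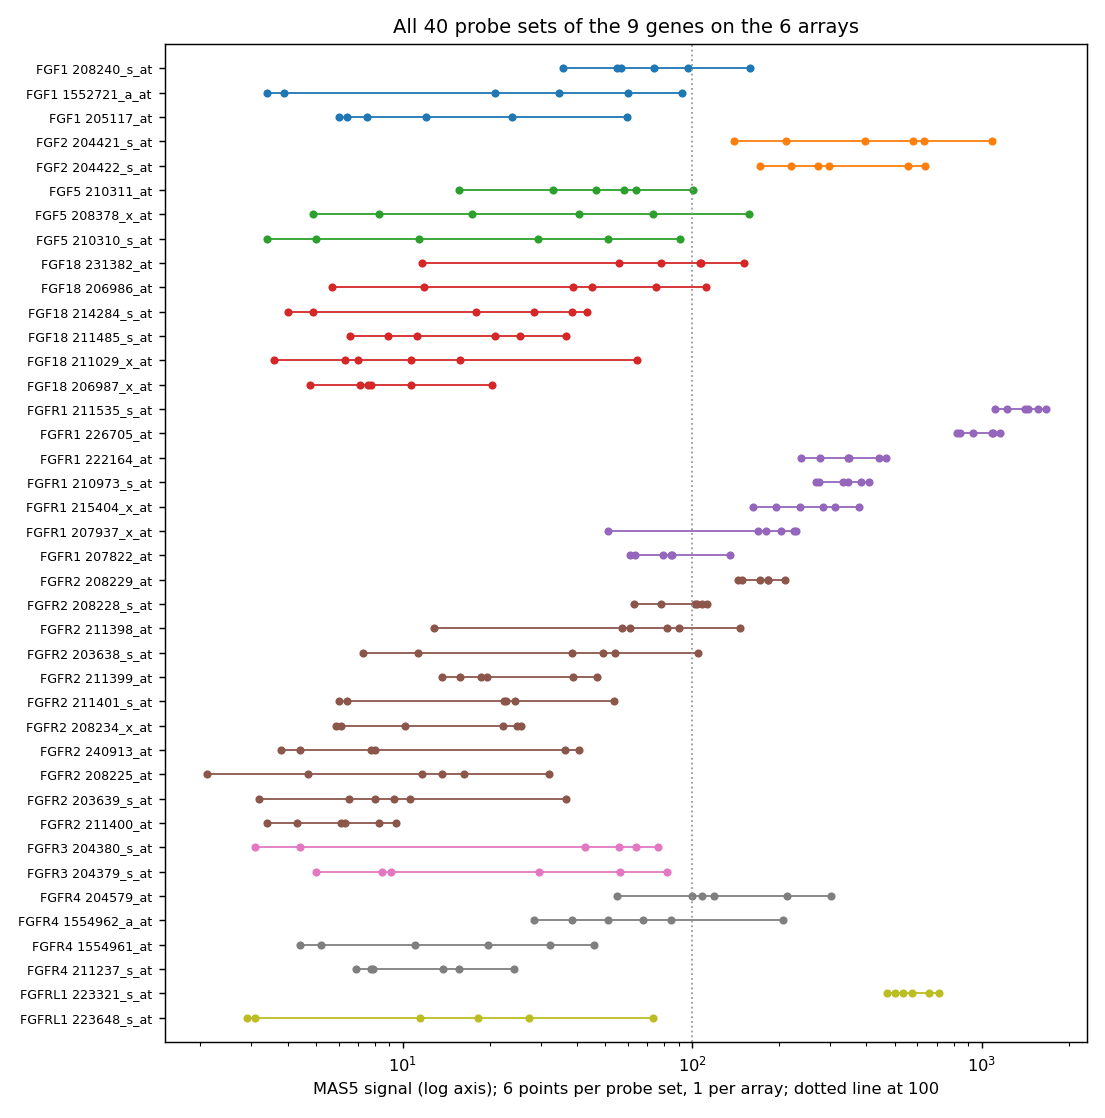
MAS5 signal (log axis) of all 40 probe sets of the 9 genes, with 1 point per array, a line over the range and a dotted line at a signal of 100. Both FGF2 probe sets and 5 of 7 FGFR1 probe sets lie wholly to the right of that line, whereas both FGFR3 probe sets lie wholly to the left.

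FGF2 was the one gene of the 9 called by limma with the block or by the local pooled error test, at 8 h, and limma without the block called none of the 9. Its signal was 2.77 to 4.53 times as high at 8 h of Tg as in untreated cells on probe set 204421_s_at, and 1.88 to 3.71 times as high on 204422_s_at, the 2 figures of each pair being the ratios within replicate 2 and replicate 1. In every pair of values below, replicate 1 is given first. Probe set 204421_s_at read 212 and 579 at 3 h of Tg, 632 and 1089 at 8 h, and 139.5 and 394 in untreated cells. Both 8 h arrays lay above both untreated arrays, whereas the 3 h and untreated arrays overlapped, and replicate 1 was the dimmer of the pair in all 3 groups. Probe set 204422_s_at read 220.2 and 273 at 3 h of Tg, 635 and 558 at 8 h, and 171 and 297 in untreated cells. Again the 8 h arrays lay above the others, and the 3 h arrays fell inside the untreated range. With 2 arrays per group, groups can lie apart without a real change. The share of all probe sets that do so is not given here. In bulk RNA a change in the number of expressing cells and a change in RNA per cell cannot be told apart.

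The call on FGF2 depended on how the replicates were treated, and the 3 h and 8 h comparisons share the untreated arrays. For 204421_s_at the log2 fold change at 8 h was 1.82 with an SE of 0.61 and an adjusted p of 0.339 in limma without a block, where the gap between the 2 untreated arrays (-1.50 on the log2 scale, replicate 1 minus replicate 2) counts as spread. With the replicate number as a block the SE was 0.25 and the adjusted p was 0.00247. For 204422_s_at the log2 fold change at 8 h was 1.40 with an SE of 0.34 and an adjusted p of 0.168 in limma, and with the block the SE was 0.29 and the adjusted p was 0.0195. Its untreated arrays differed by -0.80. The local pooled error test, a method that the study's methods name and that was coded anew here, gave adjusted p-values of 0.027 for 204421_s_at and 0.284 for 204422_s_at at 8 h. Its smoothing and adjustment can differ from those of the study, so its p-values and calls are not the study's own.

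Leaving out single arrays separated the 2 FGF2 probe sets. In the fit with the block, 204421_s_at passed at 8 h in all 6 fits that left out 1 array, with log2 fold changes of 1.48 to 2.17 and adjusted p-values up to 0.027. For 204422_s_at the call was lost without untreated replicate 1 (1.03, adjusted p = 0.221 in limma) and without Tg 8 h replicate 1 (1.03, adjusted p = 0.239), and it passed in the other 4 fits. At 3 h neither probe set passed, with log2 fold changes of 0.58 for 204421_s_at and 0.12 for 204422_s_at. Without the block their SEs were 0.61 and 0.34. In limma with the block the SEs were 0.25 and 0.29 and the adjusted p-values 0.410 and 0.907. The 3 h ratio to untreated cells on 204421_s_at was 1.52 within replicate 1 and 1.47 within replicate 2. Its unadjusted p was 0.0431 in limma with the block. On 204422_s_at the ratios were 1.29 and 0.917 (unadjusted p = 0.684 in the same fit). The levels of FGF2 ran highest at 8 h of Tg, and neither probe set was called at 3 h.

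FGF2 was also higher at 8 h than at 3 h of Tg. On 204421_s_at the ratio was 2.99 within replicate 1 and 1.88 within replicate 2, a log2 fold change of 1.25 with an adjusted p of 0.808 in limma and 0.0345 with the block. That call was lost without Tg 3 h replicate 1 (adjusted p = 0.262), without Tg 3 h replicate 2 (adjusted p = 0.0754) and without Tg 8 h replicate 1 (adjusted p = 0.383). On 204422_s_at the log2 fold change was 1.28, with an adjusted p of 0.451 in limma and 0.0525 with the block. This comparison shares the 8 h arrays with the one against untreated cells.

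NUDT6 overlaps FGF2 in RefSeq and is the antisense partner of the FGF2 gene, and the strand of the FGF2 probes was not checked here. Its signal was 698 and 867 at 3 h of Tg, 909.5 and 889 at 8 h, and 933.5 and 885.5 in untreated cells. The 8 h arrays lay within the range of the untreated arrays, with a log2 fold change of -0.02 (SE 0.22) and an adjusted p of 0.992 in limma.

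**Figure D2:**
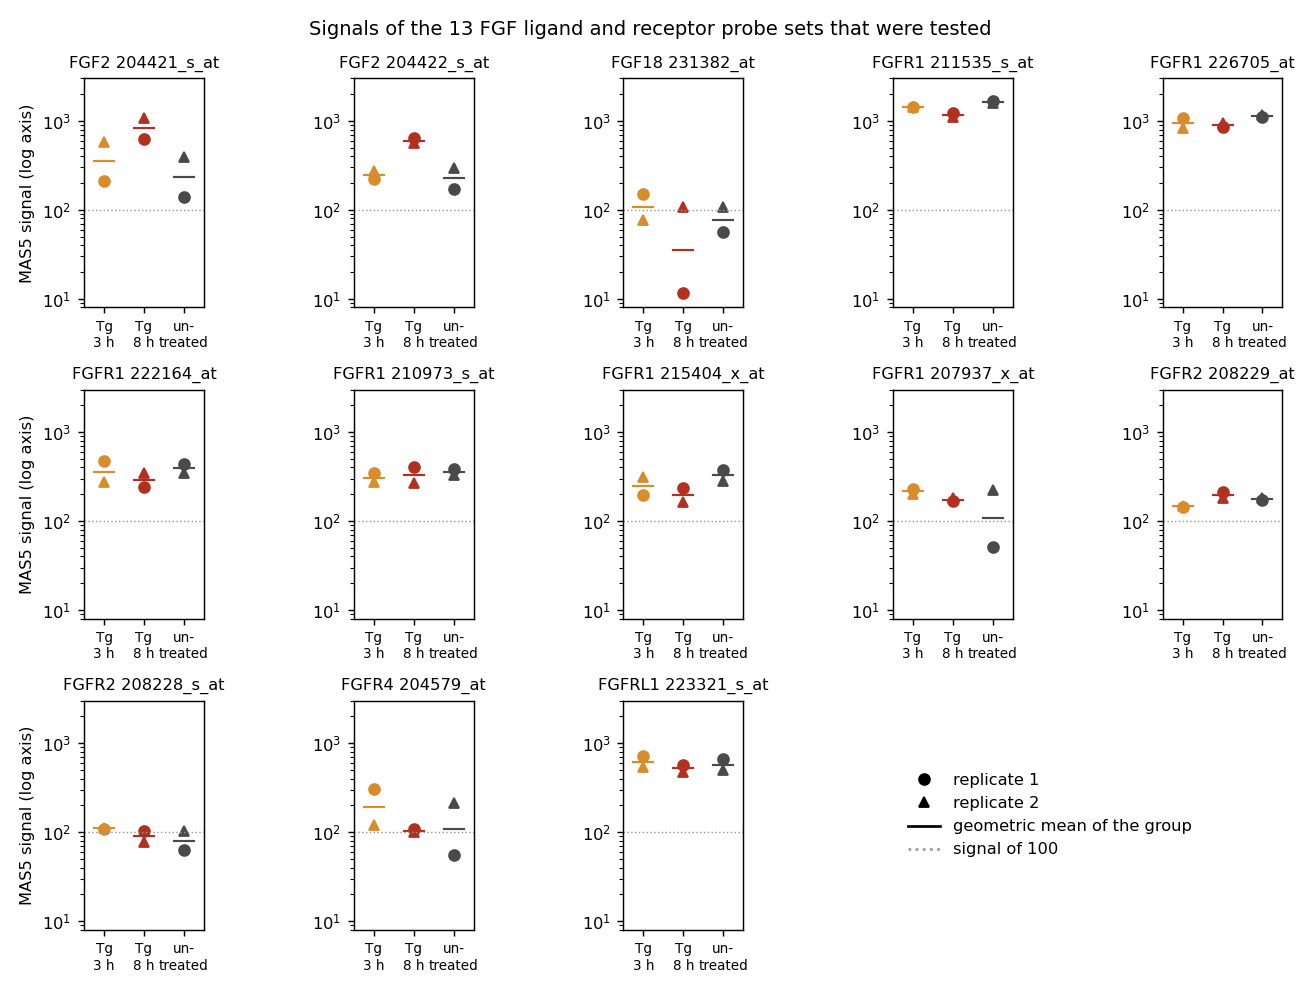
MAS5 signal (log axis) of the 13 tested probe sets on each array, with circles for replicate 1, triangles for replicate 2, a bar at the geometric mean of each group and a dotted line at 100. On both FGF2 probe sets the 8 h arrays, at 558 to 1089, sit above the untreated arrays, at 139.5 to 394.

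The other ligands were near the limit of measurement. FGF1, which binds every FGF receptor, ranged from 3.4 to 159 over its 3 probe sets, and on the brightest, 208240_s_at, it read 54.8 and 35.7 at 3 h of Tg, 96.9 and 73.9 at 8 h, and 159 and 56.7 in untreated cells. FGF5, a regulator of the hair growth cycle, ranged from 3.4 to 157 over 3 probe sets and reached 100 only in Tg 3 h replicate 1, where 208378_x_at read 157 and 210311_at read 101. Neither gene was tested. FGF18, which acts in bone and cartilage formation, was tested on 231382_at alone, which read 151 and 77.8 at 3 h of Tg, 11.7 and 108 at 8 h, and 55.9 and 107 in untreated cells. The groups overlapped, and the 8 h log2 fold change of -1.12 (SE 1.16) had an adjusted p of 0.844 in limma. With signals under 100 raised to 100 that difference was 0.01, since 1 dim array, Tg 8 h replicate 1, carried it. The other 5 FGF18 probe sets ranged from 3.6 to 112.

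FGFR1, the receptor that mediates many FGF2 responses, was measured by 7 probe sets, 6 of them tested, and passed on none of the 6, with or without the block. The brightest, 211535_s_at, read 1451 and 1415 at 3 h of Tg, 1219 and 1110 at 8 h, and 1662 and 1570 in untreated cells. The 3 groups did not overlap, with the untreated arrays highest and the 8 h arrays lowest, and the ratio at 8 h was 0.734 within replicate 1 and 0.707 within replicate 2. The log2 fold change was -0.17 (SE 0.19) at 3 h and -0.47 (SE 0.19) at 8 h. At 8 h the unadjusted p was 0.0398 and the adjusted p was 0.471 in limma, or 0.0883 with the block.

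Other FGFR1 probe sets differed among themselves. Probe set 226705_at read 1083 and 822 at 3 h of Tg, 844 and 935 at 8 h, and 1093 and 1158 in untreated cells, and its 8 h log2 fold change was -0.34 (SE 0.22, adjusted p = 0.692 in limma). Probe set 215404_x_at read 195 and 311 at 3 h, 235 and 162 at 8 h, and 376 and 283 in untreated cells, a log2 fold change of -0.74 at 8 h (SE 0.38, adjusted p = 0.584 in limma). On both, as on 222164_at with -0.45 (SE 0.36), the 8 h arrays lay below the untreated arrays. That separation is not a call, and how many of all probe sets separated in this way is not given here. Probe set 210973_s_at had -0.11 (SE 0.32) at 8 h with overlapping groups. The remaining tested one, 207937_x_at, gave the opposite sign, 0.70 (SE 0.66), through a single untreated array at 51.0 beside its partner at 225. Probe sets whose names end in _x_at can bind related transcripts, so their signal is not certain to be FGFR1 alone. The seventh, 207822_at, ranged from 60.8 to 135 and was not tested.

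FGFR2, FGFR3 and FGFR4, the other receptors with a kinase domain, gave little signal. FGFR2 had 11 probe sets, of which 7 were near background. The only one above 100 on every array, 208229_at, read 144 and 149 at 3 h of Tg, 209 and 183 at 8 h, and 171 and 183 in untreated cells, and its log2 fold changes were -0.27 (SE 0.37) at 3 h and 0.15 (SE 0.37) at 8 h, with adjusted p-values of 1.0 and 0.960 in limma. The second tested one, 208228_s_at, read 108 and 112 at 3 h, 104 and 78.0 at 8 h, and 62.7 and 102 in untreated cells. On both, the log2 differences from untreated cells were smaller than their SEs. FGFR3 ranged from 3.1 to 82.1 over 2 probe sets, under 100 on all 6 arrays, so it was not tested and no change in it could be detected here.

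The replicates of FGFR4, a receptor prominent in liver and muscle, pointed in opposite directions. Its tested probe set, 204579_at, read 302 and 119 at 3 h of Tg, 108 and 99.9 at 8 h, and 54.9 and 213 in untreated cells. Within replicate 1 the 3 h ratio was 5.51, and within replicate 2 it was 0.558. The log2 fold changes were 0.81 (SE 0.74) at 3 h and -0.06 (SE 0.74) at 8 h, neither of which passed. The other 3 FGFR4 probe sets ranged from 4.4 to 207.

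FGFRL1, a receptor that binds FGF and heparin but lacks the kinase domain, differed from untreated cells by less than its SE at both times. Probe set 223321_s_at read 714 and 534 at 3 h of Tg, 574 and 472 at 8 h, and 658 and 502 in untreated cells. Replicate 1 was the brighter of the pair in each group, and the groups overlapped. The log2 fold change was 0.10 (SE 0.27) at 3 h and -0.14 (SE 0.27) at 8 h, with adjusted p-values of 1.0 and 0.939 in limma and 0.872 and 0.731 with the block. Between the times the log2 fold change was -0.25, with an SE of 0.27 without the block and 0.19 with it. Its adjusted p was 0.957 in limma and 0.569 with the block. The second FGFRL1 probe set, 223648_s_at, was near background at 2.9 to 73.1.

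Counted over the 13 tested probe sets, 0 passed at 3 h, 0 at 8 h and 0 between the times in limma without the block. Over all probe sets tested that fit called 0.0543% at 3 h, 0.659% at 8 h and 0% between the times. At an unadjusted p under 0.05 it gave 0 at 3 h, 2 higher and 1 lower at 8 h, and 1 higher at 8 h than at 3 h, beside 4.08%, 9.97% and 6.53% of all probe sets. With the block, 0 passed at 3 h, 2 were higher at 8 h, both of FGF2, and 1 was higher at 8 h than at 3 h, again FGF2, where all probe sets gave 0.992%, 6.59% and 2.46%. At an unadjusted p under 0.05 the block gave 1 higher at 3 h, FGF2 204421_s_at, beside 11.6% of all probe sets. It gave 2 higher and 1 lower at 8 h, beside 20.5%, and 2 higher at 8 h than at 3 h, beside 15.6%. The local pooled error test called 0 at 3 h, 1 at 8 h and 0 between the times, beside 0.185%, 0.963% and 0.199% of all probe sets, and 0, 2 and 2 at an unadjusted p under 0.05, beside 1.59%, 4.9% and 2.96%.

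**Figure D3:**
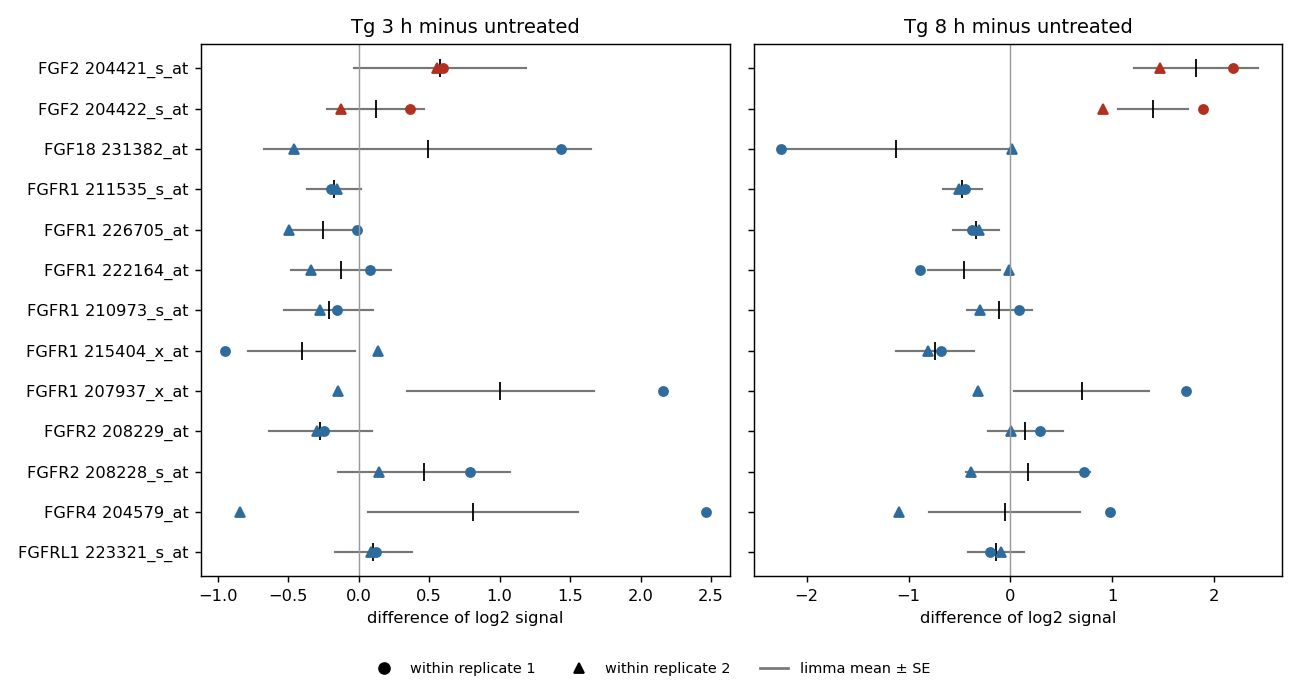
Difference of log2 signal from untreated cells at 3 h (left) and 8 h (right) of Tg for the 13 tested probe sets, as circles within replicate 1, triangles within replicate 2, and the limma mean (tick) with its SE (line) from the fit without a block. At 8 h both points of each FGF2 probe set (red) lie to the right of 0, between 0.91 and 2.18, whereas the points of FGFR4 fall on both sides.

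The rest of the pathway was read from 6 lists of 100 genes, of which 92 had a probe set and 76 were tested, each on its brightest probe set. In limma without the block 0 of the 76 passed at 3 h, where the same fit called 0.0701% of all genes tested higher and 0% lower. At an unadjusted p under 0.05 it gave 9 of the 76 higher and 0 lower, beside 3.26% and 1.24% of all genes. At 8 h 1 of the 76 rose and 0 fell, where 0.646% of all genes rose and 0.21% fell. Before adjustment (p under 0.05) limma gave 8 higher and 3 lower at 8 h, beside 5.44% and 6.64% of all genes. Between the times it gave 3 higher and 1 lower, beside 2.77% and 5.05%. With the block 6 of the 76 rose at 3 h and 0 fell, beside 1.17% of all genes above and 0.0779% below. For 8 h the blocked counts were 8 risen and 0 fallen, beside 4.76% of all genes above and 3.79% below, or 7 risen without FLRT2, the 1 gene of the 76 that passed the filter through 1 group only. Between the times the blocked fit called SPRY2 lower and FLRT2 higher at 8 h than at 3 h, beside 1.72% of all genes lower and 1.53% higher, and limma without the block called neither. At an unadjusted p under 0.05 the blocked fit gave 14 higher and 1 lower at 3 h, beside 7.27% and 5.82% of all genes. Its 8 h counts were 14 higher and 8 lower, beside 10.3% and 14.7%. Between the times they were 9 higher and 8 lower, beside 7.56% and 11.3%. The local pooled error test called 4 higher at 8 h, PHLDA1, SPRY4, DUSP5 and ETV5, beside 1.05% of all genes, and 0 at 3 h, beside 0.296%. Before adjustment (p under 0.05) its 3 h counts were 7 higher and 0 lower, beside 1.61% and 0.195% of all genes. Its 8 h counts were 7 higher and 1 lower, beside 3.62% and 2.28%. Between the times they were 2 higher and 1 lower, beside 1.67% and 1.85%.

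Most of those genes were feedback inhibitors and targets of ERK. Of 19 such genes 18 were tested, with a median log2 fold change of 0.59 at 3 h and 0.40 at 8 h, against -0.02 and -0.09 over all genes. The rise was not uniform. At 8 h the log2 fold changes of FOS (-1.375), IL17RD (-0.79) and CCND1 (-0.48) were below 0, and ETV1 and SPRED1 lay at 0.03. None of these was called in either fit, and they were named after their values were seen. PHLDA1, a pleckstrin homology-like domain protein induced by growth factors, was the one that rose in limma without the block, with 6779 and 7990 at 8 h of Tg against 2212 and 2844 in untreated cells, a log2 fold change of 1.55 (SE 0.24, adjusted p = 0.0422, or 0.000135 with the block). Without the block it lost the call in each of the 6 fits that left out 1 array (1.37 to 1.74, adjusted p up to 0.239 in limma). With the block it passed in all 6 of those fits at both times, and its 3 h signals were 4737 and 6565.

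The Sprouty proteins restrain RAS and ERK signals downstream of the receptor. SPRY4 read 476.5 and 671 at 3 h of Tg, 464 and 845 at 8 h, and 107 and 223 in untreated cells, and its log2 fold changes were 1.87 after 3 h (adjusted p = 0.474 in limma, or 0.00563 once blocked) and 2.02 after 8 h (adjusted p = 0.117, or 0.00116 once blocked). SPRY2 read 2894 and 1871 at 3 h, 1263 and 1174 at 8 h, and 814 and 763 in untreated cells. Both were above untreated cells on every treated array, and SPRY2 was higher early, with log2 fold changes of 1.56 at 3 h (adjusted p = 0.142 in limma, 0.00276 with the block) and 0.63 at 8 h (0.458, and 0.0676 with the block). With the block the 8 h call of SPRY4 and the 3 h call of SPRY2 held in all 6 fits that left out 1 array, and the 3 h call of SPRY4 was lost without Tg 3 h replicate 1 (adjusted p = 0.099).

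DUSP5, a phosphatase that inactivates ERK in the nucleus, and ETV5, an ETS transcription factor induced by FGF signaling, passed at 8 h in the blocked fit and also by local pooled error (adjusted p = 0.0399 and 0.0413), and not in limma without the block. DUSP5 read 1107 and 1807 at 3 h of Tg, 1772 and 2180 at 8 h, and 664 and 717 in untreated cells, and its 8 h log2 fold change was 1.51 (adjusted p = 0.068 in limma, 0.00112 with the block). ETV5 read 6063 and 5747 at 3 h, 12280 and 7298 at 8 h, and 3939 and 3587 in untreated cells, with 1.33 at 8 h (0.0907, and 0.00152 with the block). Both 8 h calls held in all 6 blocked fits that left out 1 array. The 3 h call of DUSP5 (1.04, adjusted p = 0.026 with the block) was lost without Tg 3 h replicate 2 and without either untreated array, with adjusted p-values up to 0.144. DUSP6 at 8 h (0.98, blocked adjusted p = 0.023) and MYC (1.01, 0.0243) and FOSL1 (0.81, 0.0471) at 3 h complete the genes of this list that passed with the block, and they were named after their values were seen. Each of those 3 lost its call in at least 2 of the 6 fits that left out 1 array, MYC without Tg 3 h replicate 1 or untreated replicate 1, FOSL1 without any 1 of the 4 arrays compared, and DUSP6 without Tg 8 h replicate 2 or either untreated array, with adjusted p-values up to 0.288, 0.325 and 0.136.

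Among 15 co-receptors, binding proteins and receptor partners, 10 were tested and SYT1 rose at 8 h with the block, beside FLRT2. FLRT2, a membrane protein of the FLRT family, whose members bind FGF receptors, read 36.3 and 72.6 at 3 h of Tg, 276.5 and 371 at 8 h, and 61.5 and 81.6 in untreated cells. It was under 100 on the 4 arrays of the other groups, so it passed the filter only through the 8 h arrays, where it is high, and its call with the block is not counted as a result. SYT1, a calcium sensor of vesicle release that takes part in the export of FGF1, read 573 and 827 at 3 h, 994 and 1196 at 8 h, and 364 and 674 in untreated cells, and its 8 h log2 fold change was 1.14 (adjusted p = 0.265 in limma, 0.00901 with the block). The blocked call of SYT1 was lost without untreated replicate 1 or Tg 8 h replicate 1 (adjusted p up to 0.126).

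The remaining lists showed few or no calls. Of 21 adaptors and proximal effectors 15 were tested, and SOS2, a RAS exchange factor, rose at 8 h with the block (0.73, adjusted p = 0.596 in limma, 0.0265 with the block), on signals of 1234 and 1874 at 8 h of Tg against 660.3 and 1274 in untreated cells. That call was lost without Tg 8 h replicate 1 or either untreated array (adjusted p up to 0.296). The 27 heparan sulfate proteoglycans and their enzymes, 25 of them tested, had 0 calls at either time with or without the block and medians of -0.04 at 3 h and -0.07 at 8 h. Of 14 further FGF ligands 5 were tested and 0 passed, and of 4 FGF homologous factors, which stay inside the cell, 3 were tested and 0 passed, with a median of -0.53 at 8 h.

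**Figure D4:**
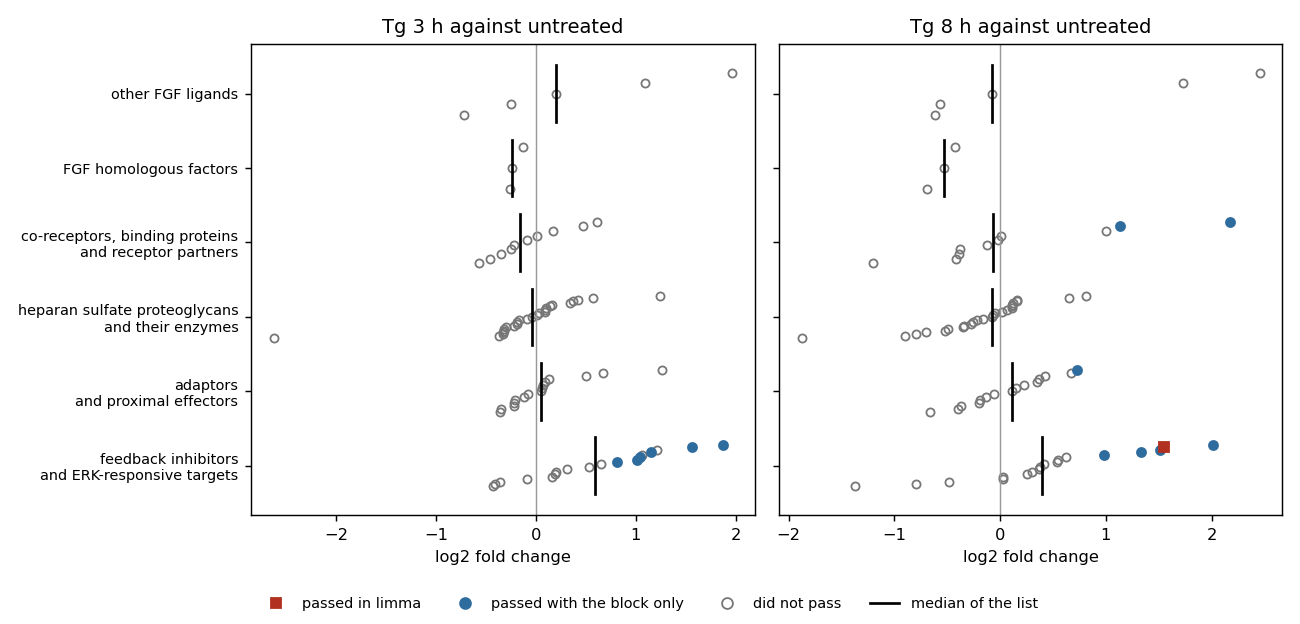
Log2 fold change of the 76 tested genes of the 6 FGF pathway lists at 3 h (left) and 8 h (right) of Tg, with a red square for a gene that passed in limma, blue for those that passed only in the limma fit with the replicate block (FLRT2 among them at 8 h), open circles for the others and a bar at the median of each list. The list of feedback inhibitors and ERK-responsive targets has its bar at 0.59 and 0.40, and 6 and 5 of its genes passed with the block.

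The pattern of 204421_s_at over the 6 arrays was set against the brightest probe set of each of 12838 other genes, by the root mean square difference of log2 signals centered on their own mean. The nearest were SLC31A1, a copper transporter (0.233), SLC22A15 (0.237), CALCB, a calcitonin gene-related peptide (0.254), CAMTA2 (0.272) and SH3TC1 (0.285). The measure takes in the gap between replicate 1 and replicate 2 as well as the change with Tg, and it is a description of these 6 arrays.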

How the data were processed

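Daoy RNA was measured on 6 Affymetrix arrays, 2 per group. The deposited values are linear signal intensities that the authors computed with MAS5 and scaled so that every array has the same trimmed mean (500.07 to 500.08 as recomputed here), and detection calls were not used. Signals were log2-transformed and fitted on all 6 arrays with limma 3.58.1 in R 4.3.3 (group as the term, eBayes with an intensity trend), two-sided, with Benjamini-Hochberg adjustment over 27616 probe sets and a threshold of 0.05. A second fit added the replicate number to the model (the block). Same-numbered arrays deviated together (correlations of 0.259 to 0.323 over the tested probe sets), so the blocked values stand beside a result where they change its call. The number of arrays limits the precision. A gene was read from its brightest probe set. Scripts were tested on simulated data. Promoter windows came from RefSeq (GRCh38.p14) and were read in Python 3.11.15, all 9 genes matched, and the windows of 8 were used. Protein features, fixed among the plans, were not computed, and FGFR1 promoters were not used here.

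The members and lists were chosen with earlier results of these data known. Named genes were all 9 members, up to 4 genes per list with the largest change among those passing without the block and up to 4 among those passing only with it, 4 UPR genes, and the 5 patterns nearest to FGF2. Alternatives were other tests, scalings, filters, floors, a pseudocount and leaving out arrays.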

Additional observations from a re-analysis of the deposited data

Results flagged for a closer look

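With the replicate number as a block, FGF2, SPRY2 and FLRT2 were called between the 2 times of Tg by the test of that difference, which called 1.53% of all genes tested higher and 1.72% lower at 8 h than at 3 h. FGF2 (204421_s_at) was higher at 8 h than at 3 h by 1.25 on the log2 scale (SE 0.25, adjusted p = 0.0345 in limma with the block), a call lost without either Tg 3 h array or Tg 8 h replicate 1 (adjusted p up to 0.383). FLRT2 read 276.5 and 371 at 8 h and 36.3 and 72.6 at 3 h, and since it passed the filter only through the 8 h arrays and was under 100 on all others, its fitted difference of 2.64 (SE 0.54, adjusted p = 0.0372) is given as a description only. The call was lost without any 1 of these 4 arrays (adjusted p up to 0.394). SPRY2 had a log2 difference of -0.93 (SE 0.18, adjusted p = 0.0269), lower at 8 h than at 3 h, and the call was lost without Tg 3 h replicate 1 or Tg 8 h replicate 1 (adjusted p up to 0.263). Without the block none of the 3 passed, with adjusted p-values of 0.808, 0.389 and 0.448.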

How the results depend on the processing

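Over the 13 tested probe sets the replicate block gave 2 calls at 8 h and 1 between the times, in place of 0 without it, and the local pooled error test gave 1 at 8 h. With 1 array left out as well as the block, an alternative added after seeing the data, the counts were 1 to 2 at 8 h and 0 to 2 between the times. Over the 76 pathway genes the block gave 6 calls at 3 h, 8 at 8 h and 2 between the times (with 1 array left out 3 to 10 at 3 h, 4, 5, 6 or 10 at 8 h, and 0 to 4 between the times), and at 8 h the 1 call of limma became 4 by the local pooled error test and 0 without the intensity trend, with median centering, with signals under 100 raised to 100, with only the 4 arrays compared and, as a range, 0 to 0 with 1 array left out. The 8 and the 2 with the block on all arrays include FLRT2, which passed the filter only through the 8 h arrays. Without FLRT2 the count at 8 h was 7. The cause of these shifts in the counts was not tested. Over all probe sets the block moved the calls to 274 at 3 h, 1819 at 8 h and 678 between the times, against 15, 182 and 0 without it. Median centering moved the median gene by -0.11 at 3 h, 0.08 at 8 h and 0.20 between the times. Of the 13 tested probe sets, 8 were refitted one by one under the alternatives, and the log2 differences among them that changed sign belonged to probe sets that passed no test in that comparison. With 1 array left out and no block, their ranges that crossed 0 were -0.17 to 1.33 for FGF2 204421_s_at and -0.28 to 0.52 for 204422_s_at at 3 h, -2.72 to 0.48 for FGF18 at 8 h, -0.29 to 0.11 for FGFR1 226705_at between the times, -0.17 to 1.79 at 3 h and -1.04 to 0.92 at 8 h for FGFR4, and -0.11 to 0.31 at 3 h and -0.34 to 0.052 at 8 h for FGFRL1. Single fits among them gave FGF2 -0.15 (204421_s_at) and -0.03 (204422_s_at) at 3 h lacking Tg 3 h replicate 2, and FGFRL1 -0.09 at 3 h lacking untreated replicate 2. With the block and 1 array left out, the signs that turned among the 8 were those of FGF2 204422_s_at at 3 h (-0.25), FGF18 at 3 h (-1.02) and 8 h (0.48), FGFR1 226705_at at 3 h (0.0026) and between the times (0.17 and 0.066), and FGFR4 at 3 h (-0.53 and -0.32), at 8 h (1.28 and 0.15) and between the times (0.27). Some pathway genes called with the block in another comparison crossed 0 with 1 array left out. They were SOS2 at 3 h and DUSP6 and SPRY4 between the times, with and without the block, and MYC at 8 h and FLRT2 at 3 h without it. None of them was called in the comparison where it crossed 0. Other settings turned FGF18 at 8 h (0.0054 with signals raised to 100), FGFR1 226705_at between the times (0.11 with median centering), FGFR2 at 3 h (0.10 as the mean of its tested probe sets), FGFR4 at 8 h (0.12 with quantile normalization, 0.025 with median centering) and FGFRL1 at 3 h (-0.0091 with median centering). At 8 h both FGF2 probe sets stayed higher under every alternative run for them. With 1 array left out the lone array of a group is assumed to vary like the others. Probe sets under 100 on all arrays give no usable difference.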
